A study of Arabidopsis thaliana with 12 samples.

Results

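The 66 miRNA entries described here are those of Arabidopsis thaliana with a family number of 1000 or higher, with miR3932 set apart. They were taken by name from 240 entries listed in any of 12 small RNA libraries. They hold 75 miRNA names, because 5 entries join several names under 1 value. Counted by the first name of each entry they belong to 52 families, so miR5595a, joined to miR5995b, adds none. Family numbers ran from 1886 to 8184, so 0 five-digit families were listed. Of the 66 entries, 40 belonged to the series that starts at 5000 and 10 to the series that starts at 8000. The others belonged to those that start at 1000 (4 entries), 2000 (5 entries), 3000 (4 entries) and 4000 (3 entries).

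Plant miRNAs are cut from hairpin precursors by a DICER-LIKE enzyme, and most are then held by ARGONAUTE1 (AGO1), which uses them to find, cut or repress complementary mRNAs. Family numbers are given in the order in which miRNAs are annotated. High numbers therefore mark families found late, mostly by deep sequencing, many of which are weakly expressed and restricted to close relatives. miR2111 is an exception among them, a family shared by many flowering plants that accumulates under phosphate starvation and travels from shoot to root. For most of the other families no target is well established, and they are described by their numbers and by the genes their precursors overlap.

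The libraries came from ecotype Col-0 in 6 groups of 2 replicates. A GFP-AGO1 fusion was driven by the ACL5 promoter (metaxylem and procambium) or by the EN7 promoter (endodermis), each in wild type (WT) and in the mutant ktn1-20, named ktn1 here. KTN1 encodes a subunit of katanin, which severs microtubules. The fusion was pulled down from roots at 9 days of age, so these 8 libraries sample small RNA held by tagged AGO1 in the cells where the promoter is active. The labels do not say whether untagged AGO1 was present, nor how many transgenic lines were used. The other groups were WT and ktn1 seedlings at 14 days, without the transgene, whose total small RNA was sequenced. The design asks whether AGO1-bound miRNAs differ between the layers and between the genotypes.

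Values were RPM, reads per 1000000 reads of the library. The smallest RPM above 0 in a library was taken as 1 read, which puts the denominators at 5804745 to 13004041 reads in the AGO1 libraries and 13769316 to 44332443 reads in seedlings. The entries numbered 1000 or higher took 1449 to 5371 of these reads per AGO1 library and 2959 to 16879 per seedling library. An entry was called detected at 3 reads, worth 0.231 to 0.517 RPM depending on the AGO1 library and 0.0677 to 0.218 RPM depending on the seedling library. On the first principal component of the 73 tested entries outside the 66 and outside miR165 and miR166 (53.9% of the variance), EN7 WT replicate 1 (-4.28) lay with 3 ACL5 libraries (-9.00 to -6.59). ACL5 ktn1 replicate 2 (0.098) lay between these and the other 3 EN7 libraries (7.40 to 11.9). The layer differences of miR5654-3p and of the entry shared by miR5995b and miR5595a are given with and without those 2 libraries. So is the call on miR5650.

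Of the 66 entries, 48 were listed in the AGO1 libraries: 44 in the ACL5 line and 40 in the EN7 line, 36 of them in both. The remaining 18 were listed in seedlings alone. An unlisted entry was taken as 0, although it may hold up to 3 reads over the 4 libraries of a line. Detection at 3 reads in all 8 AGO1 libraries was met by 16 entries (24.2%). It was met by 52 of 87 entries (59.8%) of conserved families such as miR156, miR166 and miR396, and by 38 of 86 entries (44.2%) of other three-digit families. A further 30 of the 66 reached 3 reads in 1 to 7 AGO1 libraries, and 20 in none, 18 of which had 0 reads throughout. Levels were low beside this: the median entry had a mean of 0.322 RPM over the 8 libraries, against 8.92 RPM in conserved and 1.68 RPM in other three-digit families.

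**Figure D1:**
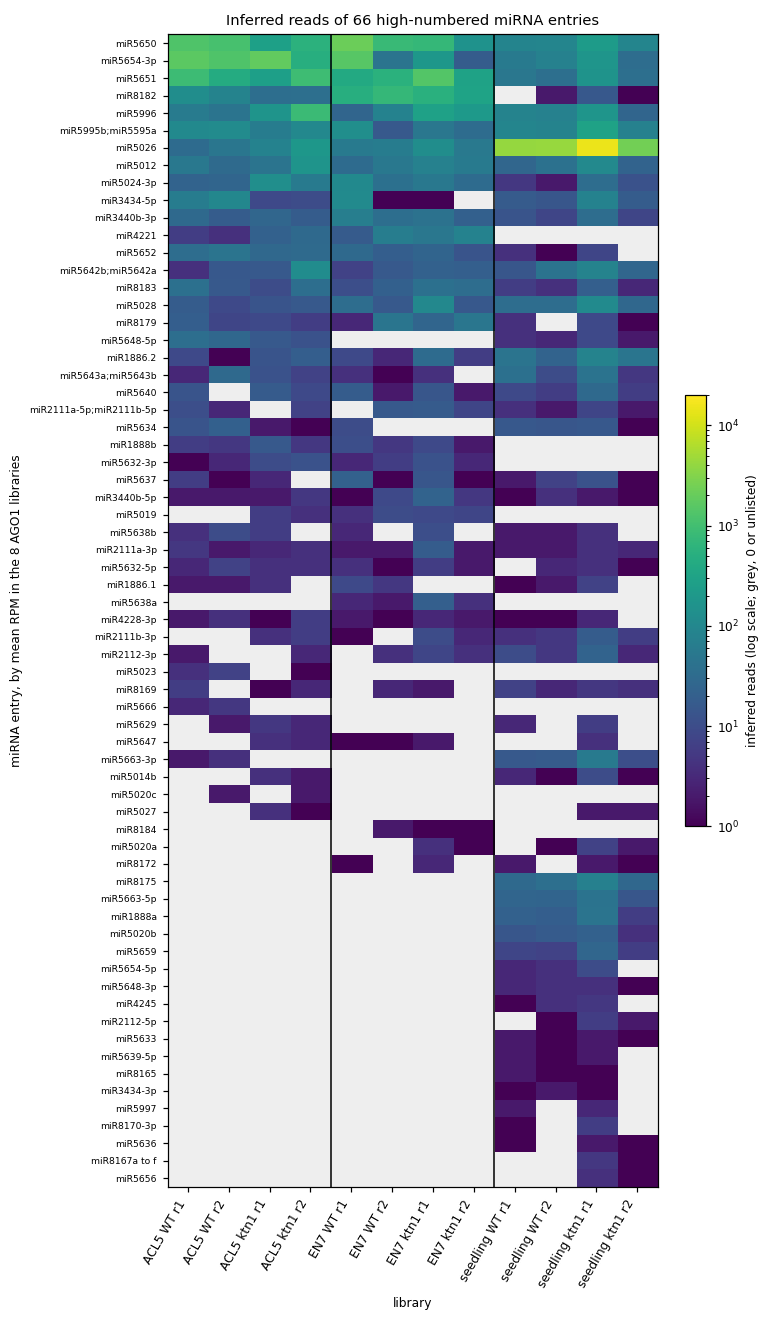
Inferred reads of each of the 66 entries (rows, ordered by mean RPM in the AGO1 libraries) in the 12 libraries (columns) on a log colour scale, with grey for 0 or unlisted. Most of the top rows are filled across all 8 AGO1 columns, miR3434-5p being an exception with 0 reads in EN7 ktn1 replicate 2, and the bottom 18 rows hold reads in seedlings alone.

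The 16 entries detected in every AGO1 library were miR5650, miR5654-3p, miR5651, miR8182, miR5996, the entry shared by miR5995b and miR5595a, miR5026, miR5012, miR5024-3p, miR3440b-3p, miR4221, miR5652, the entry shared by miR5642a and miR5642b, miR8183, miR5028 and miR8179. A level of 100 RPM in any AGO1 library was reached by 4 of them (miR5650, miR5654-3p, miR5651 and miR8182), and 10 RPM by 11 of the 66. Between 56.2% and 83.5% of the summed RPM of the 66 came from 3 entries in each AGO1 library.

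Together the 66 entries took 0.235% ± 0.0156 of listed miRNA RPM in ACL5 WT and 0.117% ± 0.0119 in ACL5 ktn1 (SD, n = 2 each). The EN7 line gave 0.164% ± 0.0829 for WT and 0.0391% ± 0.0178 for ktn1 (SD, n = 2 each). Single libraries held 0.224% and 0.246% (ACL5 WT), 0.109% and 0.125% (ACL5 ktn1), 0.223% and 0.105% (EN7 WT), and 0.0517% and 0.0265% (EN7 ktn1). In both lines the ktn1 libraries lay below the WT libraries, and the EN7 WT replicates spanned a wider range than those of any other AGO1 group. In RPM the sums were 638 ± 29.8 and 378 ± 35.4 in ACL5 WT and ktn1, and 538 ± 206 and 225 ± 117 in EN7 WT and ktn1 (SD, n = 2 each).

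Replicates were compared by detection first. In ACL5 WT, 26 entries reached 3 reads in both replicates and 8 in 1 of them, so 76.5% of those detected at all were detected in both. The same share was 74.4% in ACL5 ktn1 (29 in both, 10 in 1), 63.6% in EN7 WT (21 and 12) and 70.6% in EN7 ktn1 (24 and 10). Conserved families gave 80.0% to 95.5% over these 4 groups and other three-digit families 78.7% to 84.1%. Every AGO1 group thus had a lower share of repeated detection among the 66 than in either of these lists, whose entries were also more abundant.

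Agreement in level was compared next, among entries with a group mean of at least 1 RPM. In ACL5 WT, 16 of 21 (76.2%) lay within 2-fold, beside 87 of 109 remaining entries (79.8%). The counts were 12 of 22 (54.5%) beside 58 of 107 (54.2%) in ACL5 ktn1, and 11 of 19 (57.9%) beside 52 of 96 (54.2%) in EN7 ktn1. EN7 WT had the fewest, 8 of 21 (38.1%) beside 52 of 103 (50.5%), with a median absolute log2 difference of 1.22 beside 0.86. At a group mean of 10 RPM or more, 6 of 6 in ACL5 WT lay within 2-fold beside 88.7% of remaining entries. In ACL5 ktn1 it was 0 of 7 beside 58.3%, with a median absolute log2 difference of 1.66 beside 0.88. In EN7 it was 2 of 4 in WT beside 56.5% and 2 of 4 in ktn1 beside 36 of 60 entries.

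**Figure D2:**
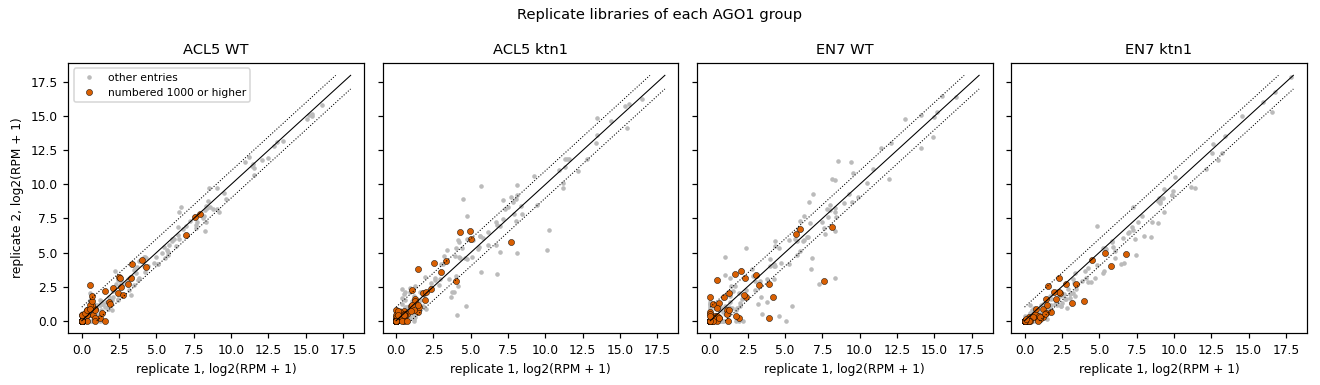
Replicate 2 against replicate 1 as log2(RPM + 1) in the 4 AGO1 groups, with the 66 entries in orange, the remaining entries in grey, a solid line of equality and dotted lines at 2-fold. The highest orange points lie within the dotted lines in ACL5 WT. In ACL5 ktn1 miR5654-3p, miR5651 and miR5996 lie outside them, and miR5650 just within, at a difference of 0.993. In EN7 WT miR5654-3p differed 29.4-fold between replicates.

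Layer and genotype differences were tested with limma on log2(RPM + 1), with a threshold of 0.05 on the Benjamini-Hochberg adjusted p. The test took the 86 entries that reached 10 RPM in at least 2 AGO1 libraries, 8 of which belong to the 66: miR5650, miR5654-3p, miR5651, miR8182, miR5996, the entry of miR5995b and miR5595a, miR5024-3p and miR3434-5p. The other 58 did not pass this filter, so counts of calls speak for these 8 alone. The labels do not say whether replicates came from separate plants, and p-values then measure the spread between these libraries, which may be technical. In tissue pulled down in bulk, fewer cells holding a miRNA and less of it held per cell cannot be told apart.

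miR8182 was higher in the EN7 line than in the ACL5 line. Its precursor overlaps the protein-coding gene AT3G61270. The ACL5 line gave 18.7 and 14.3 RPM for WT, and 3.96 and 3.95 RPM for ktn1. The EN7 line gave 64.4 and 106 RPM for WT, and 41.3 and 30.1 RPM for ktn1. All 4 EN7 libraries lay above all 4 ACL5 libraries. Averaged over the genotypes, miR8182 was 5.94-fold lower in ACL5 than in EN7 (log2 difference -2.57, SE 0.37, 95% interval -3.44 to -1.70, limma adjusted p = 0.0039). This average was tested after the values were seen, and 22 of the 86 entries (25.6%) were called in it. The adjusted p ranged from 0.0013 to 0.038 over 17 alternatives.

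Within ktn1, miR8182 was 7.32-fold lower in ACL5 (log2 difference -2.87, SE 0.52, limma adjusted p = 0.013), 1 call among the 8 where 16.3% of the 86 entries were called. Leaving out EN7 ktn1 replicate 1 or 2 moved this adjusted p to 0.072 and 0.060, within a range of 0.0047 to 0.072 over 13 alternatives. Within WT the log2 difference was -2.27 (SE 0.52) with a limma adjusted p of 0.072, ranging from 0.022 to 0.475 over 14 alternatives. There 0 of the 8 were called by limma, 1 had an unadjusted p under 0.05, and 3.49% of the 86 entries were called.

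Among the 4 entries that reached 100 RPM, miR5654-3p had the largest ratio between its highest and lowest library. Its precursor overlaps the protein-coding gene AT1G32583. The replicates read 237 and 224 RPM (ACL5 WT), 204 and 53.1 RPM (ACL5 ktn1), 191 and 6.48 RPM (EN7 WT), and 14.5 and 1.77 RPM (EN7 ktn1). The 4 libraries with negative values on the component described above held 191 to 237 RPM and the other 4 held 1.77 to 53.1 RPM, so its level divided the libraries as the component did. Its mean difference between layers was 3.31 on the log2 scale (SE 1.12, limma adjusted p = 0.070, range 0.0030 to 0.207 over 17 alternatives). Without EN7 WT replicate 1 and ACL5 ktn1 replicate 2 it was 4.96, and without EN7 WT replicate 1 alone 4.48. Within ktn1 the layer difference was 4.01 (SE 1.59, limma adjusted p = 0.128, range 0.012 to 0.459 over 13 alternatives) with those libraries and 4.97 without them. The libraries left out are the EN7 library with the highest value and the ACL5 library with the lowest. Leaving them out widens the difference by itself and adds no support for it.

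The precursors of miR5995b and miR5595a overlap each other and MES6 (a methyl esterase gene). Their shared entry read 15.6 and 20.5 RPM (ACL5 WT), 7.15 and 11.0 RPM (ACL5 ktn1), 17.3 and 2.30 RPM (EN7 WT), and 3.92 and 3.24 RPM (EN7 ktn1). Both ACL5 ktn1 libraries were above both EN7 ktn1 libraries, while the WT layers overlapped. With all 8 libraries it was not called between layers in WT (log2 difference 1.28, limma adjusted p = 0.407) or on average (1.20, limma adjusted p = 0.168). The limma adjusted p ranged from 0.012 to 0.974 over 14 alternatives and from 0.0060 to 0.353 over 17. Without EN7 WT replicate 1 and ACL5 ktn1 replicate 2 these differences were 2.51 and 1.67. Without EN7 WT replicate 1 alone the average was 1.81. EN7 WT replicate 1 was the only EN7 library above 10 RPM. Without it the entry passed the filter through ACL5 libraries alone, so these larger differences add no support for a layer difference.

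miR5648-5p marked the ACL5 line by detection. It held 36, 27, 16 and 12 reads in the ACL5 libraries, or 5.19 and 4.65 RPM for WT and 1.76 and 1.28 RPM for ktn1, and was unlisted in all 4 EN7 libraries. Its mean of 3.22 RPM in ACL5 was at least 9.62-fold higher than the mean value of 3 reads in the EN7 libraries (0.335 RPM). It was the 1 entry of 240 (0.417%) with 3 reads in every ACL5 library and fewer in every EN7 library, and 0 of 240 entries showed the reverse. It fell below the filter of 10 RPM. The precursor of miR5648 overlaps the long non-coding RNA gene AT1G06517.

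Across all 8 libraries, 3 of the 34 entries that reached 1 RPM in any of them had layers that did not overlap, where 17.2% of all entries did. These were miR5648-5p, higher in ACL5, and miR8182 and miR5638a, higher in EN7. miR5638a rested on few reads, with 3 and 2 in EN7 WT, 20 and 4 in EN7 ktn1 and 0 in all ACL5 libraries. miR4221, whose precursor overlaps the long non-coding RNA gene AT4G06265, ran from 0.689 to 3.10 RPM in ACL5 and from 2.16 to 9.51 RPM in EN7. Its layers overlapped over the 8 libraries and did not within either genotype. Within WT the layers did not overlap for 12 of 31 entries, 6 in each direction, and within ktn1 for 13 of 28, 8 of them higher in ACL5. Among all entries 51.3% and 59.3% did not overlap in these comparisons.

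**Figure D3:**
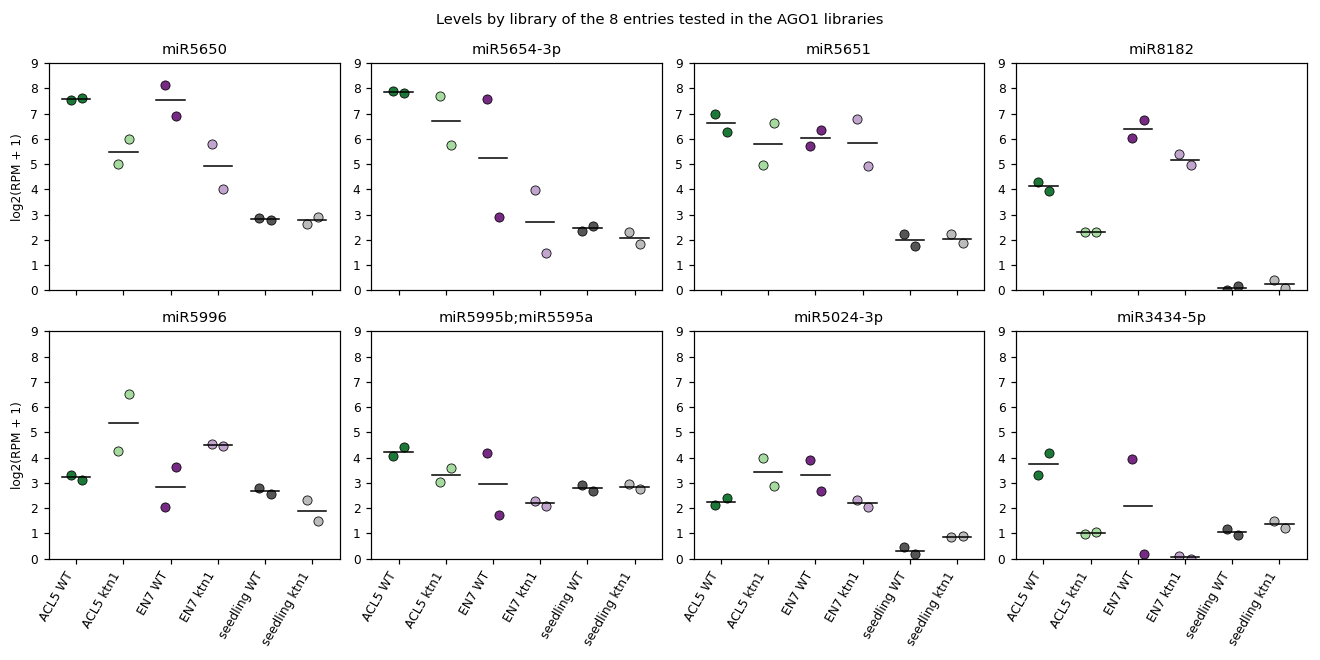
Level of each of the 8 tested entries as log2(RPM + 1) in every library, by group, seedlings included, with points for libraries and lines for the mean of the log2 values. miR8182 is higher in all EN7 than in all ACL5 libraries, miR5650 lower in all ktn1 than in all WT AGO1 libraries, and miR5654-3p splits the EN7 WT replicates.

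miR5650 was lower in ktn1 than in WT in both lines. Its precursor overlaps EDA4, a gene named after an embryo sac development mutant. The ACL5 line gave 187 and 196 RPM for WT, against 30.7 and 62.0 RPM for ktn1. The EN7 line gave 280.0 and 119 RPM for WT, against 55.3 and 15.1 RPM for ktn1. All 4 ktn1 libraries lay below all 4 WT libraries. Averaged over the layers, miR5650 was 5.13-fold lower in ktn1 (log2 difference -2.36, SE 0.57, 95% interval -3.70 to -1.02, limma adjusted p = 0.044). This average was also tested after the values were seen, and 9 of the 86 entries (10.5%) were called in it.

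The call on miR5650 held in 7 of 17 alternatives, over which the adjusted p ranged from 0.016 to 0.226. It was lost without ACL5 WT replicate 1 or 2, without ACL5 ktn1 replicate 1 or 2, without EN7 WT replicate 1 and without EN7 ktn1 replicate 2, with log2 differences of -2.61 to -1.91 in these fits. It was also lost with a filter of 1 RPM (limma adjusted p = 0.063), with no filter (0.067), without the trend in limma (0.057) and without the 2 libraries named above (0.067). Within the lines the log2 difference was -2.11 in ACL5 (SE 0.80, limma adjusted p = 0.216, range 0.112 to 0.694 over 15 alternatives) and -2.61 in EN7 (SE 0.80, limma adjusted p = 0.133, range 0.046 to 0.574 over 14 alternatives). In seedlings, where WT gave 6.25 and 5.82 RPM and ktn1 5.21 and 6.46 RPM, the genotypes overlapped.

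miR8182 was the other entry called lower in ktn1 on average, by 2.85-fold (log2 difference -1.51, SE 0.37, limma adjusted p = 0.044). The call held in 5 of 17 alternatives (adjusted p 0.0089 to 0.226), and leaving out any 1 of 7 libraries ended it, all but EN7 WT replicate 2. The ktn1 libraries of each line lay below its WT libraries, by a log2 difference of -1.81 in ACL5 (SE 0.52, limma adjusted p = 0.127) and -1.21 in EN7 (SE 0.52, limma adjusted p = 0.269). These ranged over alternatives from 0.035 to 0.631 and from 0.053 to 0.796.

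Within the single lines, 0 of the 8 entries were called by limma in ACL5, where 4.65% of the 86 entries were, and 3 had an unadjusted p under 0.05. In EN7, 0 of the 8 were called by limma, where 6.98% of the 86 were, and 1 had an unadjusted p under 0.05. The median log2 difference of ktn1 from WT over the 8 was -1.03 in ACL5 and -1.16 in EN7, beside -0.0019 and -0.47 over all 86 entries. Below 0 lay 6 of the 8 in ACL5 and 7 of the 8 in EN7. With the filter of 1 RPM in 2 libraries, which 27 of the 66 passed, the medians were closer: -0.48 beside -0.04 over 145 entries in ACL5 and -0.20 beside -0.21 in EN7, with 16 of the 27 below 0 in each line.

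miR5996, whose precursor overlaps UNE15, went the other way. It read 8.93 and 7.75 RPM (ACL5 WT), 18.2 and 90.2 RPM (ACL5 ktn1), 3.18 and 11.5 RPM (EN7 WT), and 22.0 and 20.8 RPM (EN7 ktn1). All 4 ktn1 libraries lay above all 4 WT libraries. The mean log2 difference was 1.90 (SE 0.62), with a limma adjusted p of 0.113 and a range of 0.040 to 0.357 over 17 alternatives, so it was not called. Without 1 library the difference ran from 1.34 to 2.46. Every ktn1 AGO1 library reached 10 RPM, and among the WT ones EN7 WT replicate 2 alone did. The entry thus passed the filter through ktn1, and the p is no support for a difference. In total RNA of seedlings the order was the opposite, with 6.03 and 4.92 RPM for WT and 3.97 and 1.82 RPM for ktn1, a log2 difference of -0.79 that was not called either (limma adjusted p = 0.115 with the filter of 1 RPM).

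miR5996 and miR5650 were the 2 of 34 entries whose genotypes did not overlap across the 8 AGO1 libraries, where 7.01% of all entries did not. Within lines the genotypes did not overlap for 17 of 28 entries in ACL5, 11 of them lower in ktn1, and for 10 of 28 in EN7, 8 of them lower in ktn1. Among all entries 52.4% and 38.5% did not overlap in these comparisons. miR2111b-3p was the 1 entry of 240 (0.417%) with 3 reads in every ktn1 AGO1 library (4, 6, 10 and 3 reads) and fewer in every WT one (0, 0, 1 and 0 reads), and 0 entries showed the reverse. In RPM these were 0.440, 0.641, 0.769 and 0.294 against 0, 0, 0.127 and 0. Every ktn1 AGO1 library was deeper (9096290 to 13004041 reads) than every WT one (5804745 to 7860329 reads), so a floor in reads is met more easily in ktn1, and the part of depth in this result was not tested.

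miR3434-5p, whose precursor overlaps the adaptin gene alpha-ADR, differed sharply between the EN7 WT replicates, with 114 reads against 1 read. Its replicates read 9.07 and 17.1 RPM (ACL5 WT), 0.989 and 1.07 RPM (ACL5 ktn1), 14.5 and 0.144 RPM (EN7 WT), and 0.0769 and 0 RPM (EN7 ktn1). Every ktn1 library lay below the WT libraries of its own line. The mean log2 difference was -2.38 (SE 0.82, limma adjusted p = 0.136, range 0.00073 to 0.317 over 14 alternatives). The libraries above 10 RPM that let this entry pass the filter were both WT, so it could hardly be tested without being higher in WT, and the p is no support for a difference. Without EN7 WT replicate 2, the WT library that read as low as ktn1, the difference was -3.32 (limma adjusted p = 0.00073), a fit that keeps the WT libraries with high values alone.

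miR5024-3p, whose precursor overlaps the amino acid permease gene AAP5, changed side between lines. The ACL5 line held 3.31 and 4.31 RPM (WT) and 15.0 and 6.41 RPM (ktn1). The EN7 line held 14.1 and 5.47 RPM (WT) and 4.08 and 3.14 RPM (ktn1). The genotypes did not overlap in either line, with ktn1 above WT in ACL5 and below it in EN7. The difference between the changes was 2.29 on the log2 scale (SE 0.95, unadjusted p = 0.046, limma adjusted p = 0.557). The libraries above 10 RPM that let this entry pass the filter were ACL5 ktn1 replicate 1 and EN7 WT replicate 1. High values in either raise this difference, so the entry could hardly be tested without a positive one, and the p is no support for it. In this comparison 0 of the 8 were called by limma, 1 had an unadjusted p under 0.05, and 2.33% of the 86 entries were called.

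miR5651 showed no order by layer or genotype despite its level. Its precursor overlaps RDUF1, which encodes a RING-type ubiquitin ligase. Levels were 127 and 75.3 RPM (ACL5 WT), 29.9 and 96.7 RPM (ACL5 ktn1), 52.0 and 81.4 RPM (EN7 WT), and 109.7 and 28.9 RPM (EN7 ktn1). The replicates of both ktn1 groups differed by more than 3-fold (3.23-fold and 3.79-fold), and groups overlapped in every comparison.

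The same lower filter was applied to every AGO1 comparison. For ktn1 against WT, limma called 0 of the 27 in ACL5, where 6 had an unadjusted p under 0.05 and 4.14% of 145 entries were called. In EN7 it called 0 of the 27, where 1 had an unadjusted p under 0.05 and again 4.14% were called. The average over layers gave 0 calls by limma, 5 unadjusted p under 0.05 and a background of 4.83%. The difference between the changes gave 0 calls by limma, 1 unadjusted p under 0.05 and a background of 1.38%. Between layers, 1 of the 27 was called by limma in WT (miR5648-5p, where 2.76% of the 145 were), 1 in ktn1 (miR8182, where 11% were) and both on average (where 19.3% were). miR5648-5p passed this filter through ACL5 libraries alone, so its calls repeat its absence from EN7 and add no support to it.

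**Figure D4:**
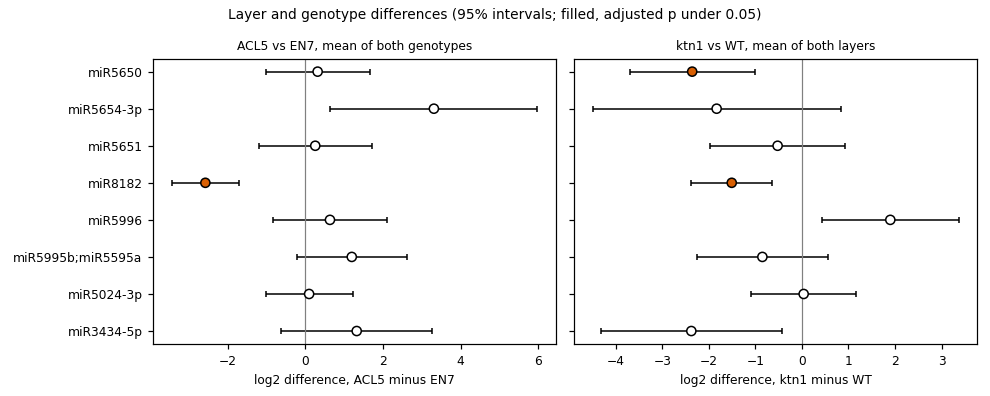
Log2 differences with 95% intervals for the 8 tested entries between layers and between genotypes, filled where the limma adjusted p was under 0.05. miR8182 lies below 0 in both the layer and the genotype average, miR5650 below 0 for genotype, and the intervals of miR5654-3p are the widest.

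Of the 16 entries detected in every AGO1 library, the remaining ones were low. miR5012 read 4.07 to 18.1 RPM over the 8 libraries, miR5026 4.61 to 20.2 RPM and miR3440b-3p 1.92 to 8.78 RPM. miR5652 ran from 1.28 to 7.92 RPM, and was lower in ktn1 than in WT in both lines without overlap, at 4.90 and 7.92 against 3.08 and 3.31 RPM in ACL5 and at 3.82 and 2.74 against 1.85 and 1.28 RPM in EN7. It was not called in either line by limma with the filter of 1 RPM. The entry of miR5642a and miR5642b ran from 0.576 to 13.0 RPM, miR8183 from 1.10 to 5.62 RPM and miR5028 from 1.43 to 7.92 RPM. miR8179, whose precursor overlaps the cell cycle gene CCS52A2, ran from 0.382 to 6.77 RPM.

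The 30 entries that reached 3 reads in some AGO1 libraries and not in others were mostly low. Over the 8 libraries, 3 reads were reached in 7 by miR1886.2, miR1888b and miR5632-3p, and in 6 by miR5019, miR5632-5p, the 5p entry of miR2111a and miR2111b and the entry of miR5643a and miR5643b. The last of these held 30 reads in ACL5 WT replicate 2 and 3 in replicate 1. A further 3 entries reached 3 reads in 5 libraries (miR3434-5p, miR5640 and miR5638b), 6 in 4 libraries and 5 in 3 libraries. Below these, 4 entries reached 3 reads in 2 libraries and 5 in 1 library. miR5640, whose precursor overlaps the callose synthase gene CALS1, had 13 and 0 reads in ACL5 WT, 17 and 9 in ACL5 ktn1, 18 and 2 in EN7 WT and 14 and 2 in EN7 ktn1. miR5634 was detected in both ACL5 WT libraries (13 and 21 reads) and in EN7 WT replicate 1 (10 reads), and had 0 to 2 reads in the other 5.

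Seedling libraries listed 57 of the 66 entries, and 24 reached 3 reads in all 4 of them. The 66 took 1.50% ± 0.0497 of listed miRNA RPM in WT seedlings and 1.52% ± 0.337 in ktn1 seedlings (SD, n = 2 each). Most of this was miR5026, at 302 and 277 RPM for WT and 332 and 175 RPM for ktn1, which made up 81.5% to 87.1% of the summed RPM of the 66 in each library. Without it the shares were 0.228% and 0.231%. The next highest seedling means were 6.08 RPM for the entry of miR5995b and miR5595a, 5.93 RPM for miR5650, 4.18 RPM for miR5996 and 3.88 RPM for miR5654-3p.

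miR5026 was the 1 entry of the 66 that passed the filter of 10 RPM in seedlings. Its mean was 290 ± 17.8 RPM for WT and 253 ± 111 RPM for ktn1 (SD, n = 2 each), and it was not called (limma adjusted p = 0.651), with 0 unadjusted p under 0.05 and 1.61% of 62 entries called. With the filter of 1 RPM, 0 of 16 entries were called by limma, 3 had an unadjusted p under 0.05 and 0.787% of 127 entries were called. Its log2 difference depended on which ktn1 library was kept. It was -0.72 without ktn1 replicate 1, the deepest library, and called (limma adjusted p = 4.1e-07), and 0.20 without ktn1 replicate 2 and not called (limma adjusted p = 0.456). In both fits the lone ktn1 library is assumed to vary like the WT libraries. Over the other alternatives the adjusted p ran from 0.598 to 0.989. Of 18 entries that reached 1 RPM in any seedling library, miR3434-5p was higher in both ktn1 libraries than in both WT libraries, at 1.85 and 1.31 against 1.23 and 0.895 RPM. The genotypes were apart in the other direction for 7 entries (miR1888a, miR5020b, miR5634, miR5654-3p, miR5663-5p, miR5996 and miR8175), and 46.8% of all entries did not overlap in this comparison.

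Root AGO1 libraries and seedling totals differ in tissue, age and assay, which cannot be told apart, and they were set side by side without a test. All listed miRNAs together averaged 375061 RPM in AGO1 and 21052 RPM in seedlings, 17.8-fold apart. miR5026 averaged 9.26 RPM over the AGO1 libraries, 29.3-fold below its seedling mean. Mean AGO1 RPM was above the seedling mean by 30.1-fold for miR5654-3p, 24.4-fold for miR5651 and 19.9-fold for miR5650. The ratio was below 17.8-fold for miR5024-3p (13.0-fold), miR5996 (5.46-fold), miR3434-5p (4.06-fold), miR5012 (3.49-fold) and the entry of miR5995b and miR5595a (1.66-fold). miR8182 was at 0 to 0.338 RPM in seedlings, with 18 reads over the 4 libraries, and at 3.95 to 106 RPM in the AGO1 libraries.

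Some entries were found on 1 side alone. miR4221 was unlisted in seedlings and its AGO1 mean was at least 22.0-fold higher than the mean value of 3 reads there. The same bound was 5.05-fold for miR1888b, 3.96-fold for miR5632-3p and 3.25-fold for miR5019. In the other direction miR8175 averaged 2.04 RPM in seedlings and was unlisted in AGO1, a seedling level at least 5.57-fold higher than 3 reads there. miR5663-5p (1.34 RPM), miR1888a (1.07 RPM), miR5020b (0.723 RPM) and miR5659 (0.513 RPM) had 0 AGO1 reads too. Thus miR1888a and miR1888b, which share a family number, were listed on opposite sides.

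**Figure D5:**
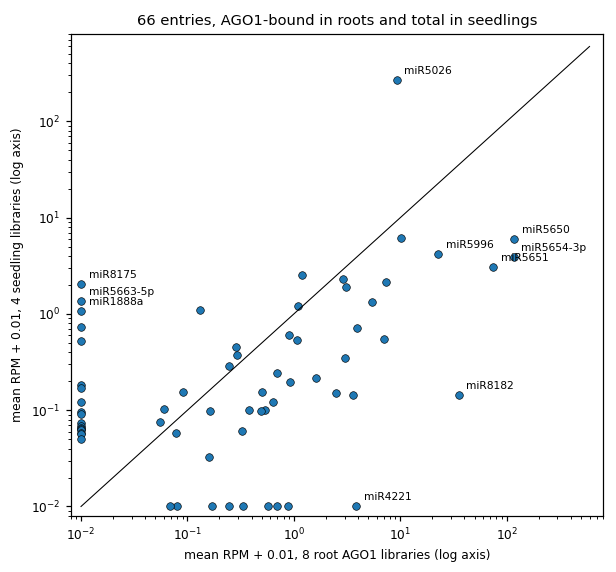
Mean RPM of each of the 66 entries over the 4 seedling libraries against the mean over the 8 root AGO1 libraries, both plus 0.01 on log axes, with a line of equality. miR5026 stands alone above the line at high level, miR8182 far below it, and points at 0.01 on an axis were at 0 on that side.

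The arms of a hairpin can be loaded unequally, and 10 pairs of products from 1 precursor were listed with at least 3 reads for a product in both libraries of a group. Reads from miR5654 came from the 3p arm, with 7055 reads against 0 from the 5p arm in AGO1 and 344 against 17 in seedlings. In AGO1 the 5p arm held all reads of miR3434 (297 against 0) and miR5648 (91 against 0), while in seedlings the counts were 131 against 4 and 18 against 12. miR3440b-3p exceeded miR3440b-5p in all 12 libraries, with 260 against 49 reads in AGO1 and 63 against 8 in seedlings.

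miR5663 gave 107 reads from the 5p and 104 from the 3p arm in seedlings, but 0 and 6 reads in AGO1. miR5632 gave 50 reads from the 3p and 31 from the 5p arm in AGO1, and 0 and 8 in seedlings. These sums do not hold for each library: over all 12, the 5p arm led in 6 and the 3p arm in 5. In WT the 3p and 5p reads were 1 and 3, and 3 and 7 (ACL5), and 3 and 4, and 6 and 1 (EN7). In ktn1 they were 10 and 4, and 12 and 4 (ACL5), and 12 and 6, and 3 and 2 (EN7). For miR2112 the 3p arm led in both sets, with 21 against 0 reads in AGO1 and 41 against 9 in seedlings. The 5p sequence shared by miR2111a and miR2111b, the form that acts in phosphate signalling, held 62 reads in AGO1, beside 38 for miR2111a-3p and 24 for miR2111b-3p. In seedlings it held 16 reads beside 11 and 33. The pair miR1886.1 and miR1886.2, which are cut from 1 precursor, held 22 and 92 reads in AGO1 and 10 and 198 in seedlings.

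All 75 names matched a precursor gene in RefSeq's table of assembly TAIR10.1, which was used for names and overlaps without regard to strand. Of the 65 precursors, 30 (46.2%) overlapped a protein-coding gene, beside 37 of 193 precursors (19.2%) numbered under 1000. The 65 are precursors of listed entries, while the 193 are all of that table, listed here or not. Among the 18 precursors of the 16 entries detected in every AGO1 library, 12 did. The precursor of miR5026 overlaps the non-coding RNA gene AT4G13495, as do those of miR850 and miR863. Its level of 9.26 RPM in AGO1 and 272 RPM in seedlings stood beside 0.778 and 0.0589 RPM for miR850, 0.694 and 0.647 RPM for miR863-5p, and 0 and 0.493 RPM for miR863-3p.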

How the data were processed

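The authors deposited 1 table of RPM per library; the unit was judged from the values. Per the submitters' processing notes, cutadapt, Bowtie and build TAIR10 were used. The miRNA annotation and the reads counted in the denominator are not given in the sources used here. Dividing by a library's lowest RPM above 0 gave whole numbers for 100% of its values, within 0.01. These inferred reads served for depth, for detection and for sums over libraries in the comparison of arms, and not for tests. Such sums give deeper libraries more weight. The floor of 3 reads covers counting error only. No listed entry totalled under 4 reads over the 4 libraries of a line.

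Groups came from the sample titles. The 8 AGO1 libraries were fitted together and the 4 seedling libraries apart, with 1 mean per group, by limma 3.58.1 in R 4.3.3 (lmFit, eBayes with trend) on log2(RPM + 1), which understates changes of low entries. Tests were two-sided and adjusted over all entries with at least 10 RPM in 2 libraries. Fits were tested on simulated data. Tables were made with Python 3.11.15, pandas 2.3.3 and NumPy 2.4.6, and figures with matplotlib 3.10.9. The files call for a test on normalized values, so the count-based tests planned as alternatives were not run.

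Members and lists were chosen with earlier results of these data known. Named were all entries tested, the highest by mean RPM in AGO1 (8) and seedlings (5), those detected in all 8 AGO1 libraries or restricted to 1 layer or genotype, and arm pairs. Entries with groups that do not overlap, and those found in AGO1 or in seedlings alone, were named after their values were seen. The averages over genotypes and over layers, the crossed replicate numbers and the fits without 2 libraries were added after seeing the data. No control immunoprecipitation was analysed here. A miRNA table holds no KTN1 transcript, so genotype labels were not checked. Mature sequences were not used here.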

Additional observations from a re-analysis of the deposited data

How the results depend on the processing

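Over other filters, pseudocounts, scalings, limma without the trend, other sets of libraries, the replicate block and each library left out, log2 differences of at least 1 among the 8 tested entries kept their direction except for 2. Their side of the threshold held 411 times, while a call was gained 22 times and lost 24 times. A group left with 1 library was assumed to vary like the others. Tests on inferred read counts were not run. Without EN7 WT replicate 1, the layer difference of the ktn1 change of miR5654-3p turned to -0.94 (lowest to highest without 1 library, -0.94 to 3.74). Without EN7 WT replicate 2, the layer difference of miR3434-5p in WT turned to -0.20 (-0.20 to 2.10). The cause was not tested. Scaling to equal miRNA sums shifted the median of all tested entries by -0.71 (EN7, ktn1 against WT) to 0.76 (layers in ktn1), so differences in RPM are relative to the reads of the denominator.

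Counts of entries called among the 66 moved as follows. In ACL5, 0 became 1 with equal sums outside miR165 and miR166 (miR8182) and with that line's libraries alone (miR3434-5p). In EN7, 0 became 1 with equal sums (miR5650), and 0 to 2 were called without 1 library, 2 without WT replicate 2. Between layers in WT, 0 became 1 with the filter of 1 RPM or none (miR5648-5p), with a pseudocount of 5 and with equal sums outside miR165 and miR166 (both miR8182), and 3 without the 2 libraries apart on the first component (miR5654-3p, miR8182 and the entry of miR5995b and miR5595a). Between layers in ktn1, 1 became 2 with no filter, equal sums, the replicate block or without those 2 libraries, and 0 to 1 without 1 library. The layer average moved from 1 to 2 with the filter of 1 RPM or none, equal sums or the replicate block, to 3 without the 2 libraries, and ranged from 1 to 3 without 1 library. The genotype average moved from 2 to 0 with the filter of 1 RPM, none, or no trend, to 1 with a pseudocount of 5, the replicate block or without the 2 libraries, and ranged from 0 to 6 without 1 library. In seedlings, 0 became 1 with no filter (miR5634), and 0 to 1 were called without 1 library. The interaction kept 0, as did ACL5 without any 1 library and layers in WT without any 1 library.

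Same-numbered libraries did not pair: their deviations correlated at -0.48 in ACL5, 0.42 in EN7, -0.17 and 0.013 between layers in WT and ktn1, and 0.18 in seedlings. With crossed numbers, 0 entries were called in ACL5 and 0 between layers in WT.

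Detection in both replicates fell from 26 to 15 at 10 reads and 17 at 1 RPM in ACL5 WT, from 29 to 18 and 18 in ACL5 ktn1, from 28 to 18 and 15 in WT seedlings and from 26 to 15 and 12 in ktn1 seedlings. In the EN7 line it fell at 1 RPM from 21 to 14 in WT and from 24 to 16 in ktn1. At 1 read it rose to 43 and 44 in WT and ktn1 seedlings. Single libraries of the 6 groups detected 29 to 31, 34 to 34, 25 to 29, 24 to 34, 32 to 34 and 26 to 49 entries. Against listed entries outside miR165 and miR166, the share was 0.283% in ACL5 WT, 0.265% in EN7 WT, 0.0991% in EN7 ktn1 and 1.59% in WT seedlings. Without the top entry it was 0.164% and 0.103% in ACL5 WT and ktn1 (miR5650), 0.102% and 0.0330% in EN7 WT and ktn1 (miR5650) and 0.228% and 0.231% in seedlings (miR5026). Without 1 library it spanned 0.224% to 0.246%, 0.109% to 0.125%, 0.105% to 0.223%, 0.0265% to 0.0517%, 1.46% to 1.53% and 1.28% to 1.75%.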
